A study of Mus musculus with 2 samples.

Results

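The genes described here are 10 genes of the ATF4 stress response and of serine synthesis, taken by symbol from the liver files: *Atf4*, *Atf5*, *Ddit3*, *Asns*, *Phgdh*, *Psat1*, *Psph*, *Shmt2*, *Mthfd2* and *Chac1*. All 10 symbols were found, each in 1 of the 53342 rows of both files. Liver mRNA was sequenced in 1 control library and 1 iFIRKO library, and 10 of 10 genes had reads in both. Both libraries came from male mice that were given tamoxifen intraperitoneally from the age of 7 weeks, at 100 mg/kg on 5 days in a row, and whose liver was taken 3 days after the final dose. The iFIRKO genotype is labelled Adipoq-CreERT2; Insr flox/flox, so that tamoxifen removes the insulin receptor from adipocytes and not from liver cells. The control is labelled WT, whereas the study's methods describe Insr flox/flox mice without the Cre.

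The comparison asks how the liver differs when adipocytes lose the insulin receptor. With 1 library per genotype, and with no statement that a library came from 1 mouse or from a pool, the differences below have no replicate check and no p-value. In a whole-liver library, a smaller share of a cell type and less RNA per cell of that type cannot be told apart. The values are normalized reads, which are read counts scaled by the authors, and the files correspond to an estimated 21138292 read pairs in control and 20652476 in iFIRKO. *Insr* itself had 4246 normalized reads in control liver and 3692 in iFIRKO liver.

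ATF4 is a transcription factor whose protein is made when the initiation factor eIF2α is phosphorylated by kinases that sense amino acid shortage, misfolded protein in the endoplasmic reticulum, haem shortage or viral RNA. It pairs with C/EBP factors on composite sites and switches on genes for amino acid synthesis, amino acid uptake and tRNA charging, together with the factors ATF5 and CHOP, the product of *Ddit3*. Serine is made from a glycolytic intermediate by PHGDH, PSAT1 and PSPH in that order, and the mitochondrial enzymes SHMT2 and MTHFD2 pass its carbon to folate. ATF4 is controlled largely at translation, so the mRNA levels given here do not measure its protein.

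*Asns*, which was higher in the iFIRKO library, and *Chac1*, which was lower, are the members whose promoter windows held the core of the ATF4 composite site, written TGATGNAA with N for any base and searched on both strands. The windows run from 250 bases before to 50 bases after each RefSeq start on GRCm38.p6, and 12 windows covered the 10 genes. The core was found in 2 of these 12 windows, against 3.97% of 32851 windows of the same length, and the stricter form TGATGCAA, whose matches are a part of those to TGATGNAA, in 1 of 12 against 0.895%. The element TGACGTCA, which CREB and ATF factors bind, was in 0 of 12 windows against 1.79% of all. Of 22 windows that covered 19 of the 24 other ATF4 target genes listed below, 7 held TGATGNAA. Stretches of 30 bases around the match are shown for the 2 members and, for comparison, for 2 of those targets, *Atf3* and *Vldlr*, which met the expression minimum and held it before the start, with the match in capitals and each sequence read 5′ to 3′ on the strand of its gene.
*Asns* (chr6:7693214-7693243, reverse strand): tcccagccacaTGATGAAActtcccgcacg
*Chac1* (chr2:119351038-119351067, forward strand): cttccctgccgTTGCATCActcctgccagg
*Atf3* (chr1:191183425-191183454, reverse strand): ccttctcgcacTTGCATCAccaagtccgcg
*Vldlr* (chr19:27216809-27216838, forward strand): agcagcaatagTTGCATCAgcgctcctagc
The match lay 23 to 16 bases before the start in *Asns*, 193 to 186 bases before it in *Chac1*, 110 to 103 in *Atf3* and 200 to 193 in *Vldlr*. In *Chac1*, *Atf3* and *Vldlr* the core reads on the strand opposite to the gene. A match is a description of the letters in a window and not evidence that a factor binds there. The windows of *Atf4*, *Atf5*, *Ddit3*, *Phgdh*, *Psat1*, *Psph*, *Shmt2* and *Mthfd2* did not hold these letters, which says nothing of sites outside them.

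Among the 10 genes, *Asns* and *Psat1* were about 2-fold higher in the iFIRKO library and *Chac1* was more than 2-fold lower, while the other genes above the expression minimum lay close together in both libraries. The minimum was 41.8 normalized reads in 1 or both libraries, a CPM (count scaled to a common library size) of 1, and 9 of the 10 genes met it. A gene was called higher or lower when its fold change, with a pseudocount of 4.18 normalized reads added to each value, exceeded 1.5, the threshold of the study. Of the 9 genes, 2 were higher, 1 was lower and 6 were neither. Over all 13400 genes at or above the minimum, 4.46% were called higher and 7.28% lower. With a minimum CPM of 5 the 3 called genes were no longer among the 4 tested, so their calls depend on that limit. The median log2 fold change of the 9 genes was 0.04, and that of all genes tested was 0.0075.

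**Figure D1:**
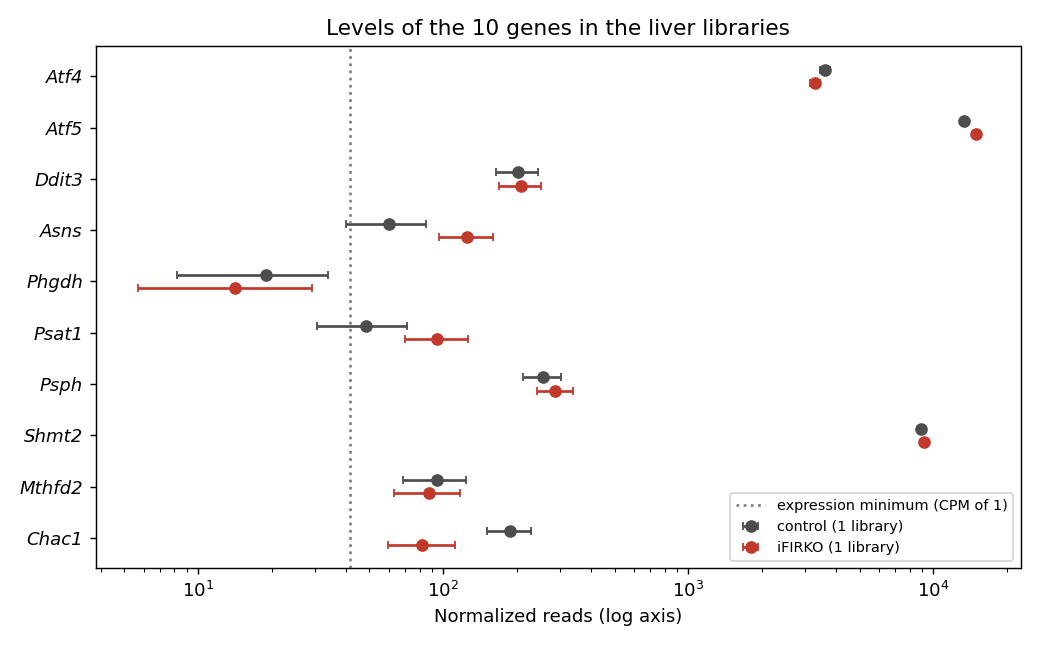
Normalized reads (log axis) of the 10 genes in the control library (grey) and the iFIRKO library (red), 1 library each. Bars are exact 95% Poisson intervals on the estimated read pairs and cover counting error only. The bars of the 2 libraries do not overlap for *Asns*, *Atf5* and *Chac1*, those of *Psat1* overlap at their ends, and *Phgdh* lies left of the dotted minimum of 41.8 normalized reads.

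None of the 3 transcription factor genes passed 1.5-fold. *Atf4* (ENSMUSG00000042406.8, chromosome 15 of GRCm38, 80255184 to 80257541, forward strand) had 3598 normalized reads in control liver and 3285 in iFIRKO liver. Its log2 fold change of -0.13 had a 95% interval from -0.23 to -0.03, so a small difference between these libraries exceeded counting error while staying under 1.5-fold. Such intervals were computed exactly (Clopper-Pearson) from estimated read pairs, without the pseudocount, and they compare 2 libraries and not 2 genotypes.

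*Atf5* (chromosome 7, 44812256 to 44816658, reverse strand), a relative of ATF4 that also takes part in the mitochondrial stress response, was the most abundant of the 10. It had 13327 normalized reads in control liver and 14918 in iFIRKO liver, which is a log2 fold change of 0.16 (interval 0.11 to 0.21.) *Atf4* was thus slightly lower and *Atf5* slightly higher, each by less than the threshold. *Atf5* overlaps *Nup62* and *Il4i1* on the other strand. Whether reads were counted by strand is not given, so its value may hold reads of those genes. *Nup62*, a nuclear pore gene, had 524 and 812 normalized reads and was itself called higher, at a log2 fold change of 0.63.

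*Ddit3* (chromosome 10, 127290774 to 127296288, forward strand), which encodes the pro-apoptotic factor CHOP, had 201 normalized reads in control liver and 207 in iFIRKO liver. Its log2 fold change of 0.04 had an interval from -0.36 to 0.46, so no difference was detectable at this depth and a difference up to that size would not have been seen. The last bases of *Ddit3* overlap *Mars*, the methionyl-tRNA synthetase gene, on the other strand. *Mars* had 2065 and 2281 normalized reads, and the *Ddit3* value may likewise hold some of them. GENCODE M21 holds a further gene entry of the name *Ddit3* at the same locus, whereas the files hold 1 row.

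*Asns* encodes asparagine synthetase, which makes asparagine from aspartate and glutamine and is a classical target of ATF4 on amino acid shortage. The gene (ENSMUSG00000029752.12) lies on the reverse strand of chromosome 6 from 7675169 to 7693254 and its longest coding transcript of 2016 nt has 12 exons. It had 59.8 normalized reads in control, about 30 read pairs, and 125 in iFIRKO, about 62 read pairs. The iFIRKO value was the higher one by 2.09-fold as a plain ratio, with an interval from 1.33 to 3.35. With the pseudocount the log2 fold change was 1.01, which placed *Asns* at rank 206 from the top of 13400 genes. Low genes vary more between libraries: of the 2716 tested genes whose mean level lay within 2-fold of that of *Asns*, 8.32% were called higher, and 72, with *Asns* among them, had a log2 fold change at least as high.

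**Figure D2:**
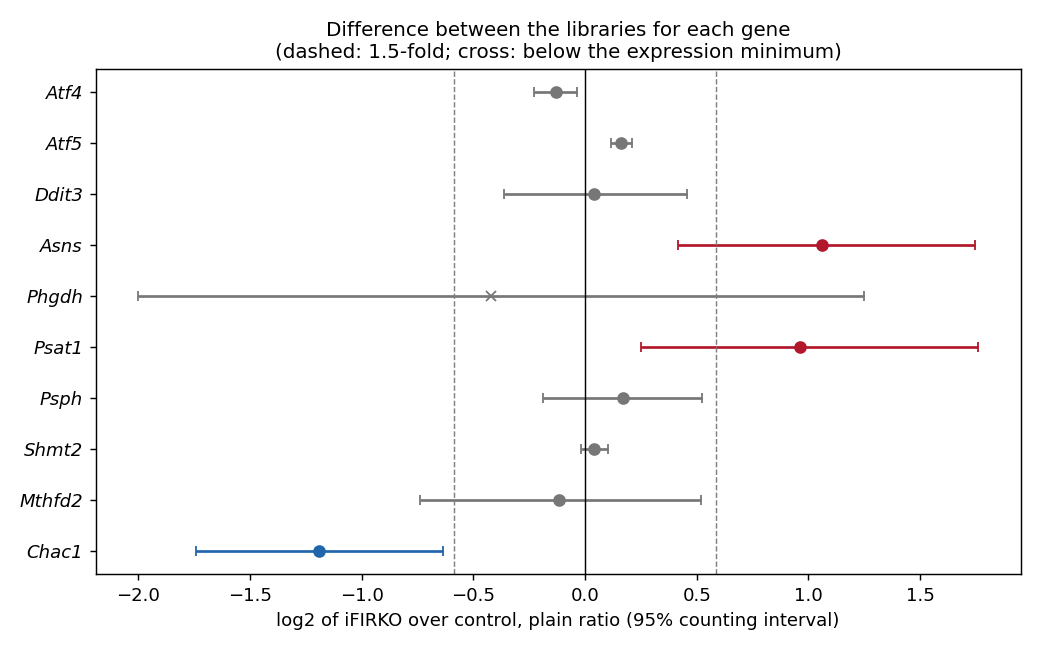
log2 ratio of iFIRKO over control for the 10 genes, without a pseudocount, with exact 95% Clopper-Pearson intervals that cover counting error only. Red marks the genes called higher, blue the gene called lower, and the cross the gene below the minimum. The intervals of *Asns* (0.42 to 1.75), *Psat1* (0.25 to 1.76) and *Chac1* (-1.74 to -0.63) lie on 1 side of 0.

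Of the 3 genes of serine synthesis, 1 was called higher, 1 was not called and 1 was under the minimum, and no difference among them was tested. *Phgdh* (chromosome 3, 98313170 to 98339990, reverse strand), the gene of the first enzyme, 3-phosphoglycerate dehydrogenase, had 18.9 normalized reads in control liver and 14.1 in iFIRKO liver, about 9 and 7 read pairs. It was under the minimum in both libraries, and its plain ratio had an interval from 0.249 to 2.38, so neither a difference nor its direction could be read. A processed pseudogene, *Phgdh-ps1*, lies on chromosome 7 and could share reads with it.

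*Psat1*, the gene of phosphoserine aminotransferase, the middle step, had 48.5 normalized reads in control, about 24 read pairs, and 94.6 in iFIRKO, about 47 read pairs. The gene (ENSMUSG00000024640.9) spans 15904678 to 15947337 on the reverse strand of chromosome 19. Its iFIRKO value was 1.95-fold the control value, with an interval from 1.19 to 3.39. The log2 fold change with the pseudocount was 0.91, rank 266 from the top. Of the 2494 tested genes within 2-fold of its mean level, 10.1% were called higher, and 106, itself included, had a log2 fold change at least as high.

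*Psph* (chromosome 5, 129765558 to 129787449, reverse strand), the gene of phosphoserine phosphatase, which releases serine in the last step, had 255 normalized reads in control liver and 287 in iFIRKO liver. Its log2 fold change was 0.17 with an interval from -0.19 to 0.52. Of the serine synthesis genes, *Psat1* was therefore past the threshold, *Psph* was not, and *Phgdh* was too low to compare. *Psph* overlaps the start of *Cct6a*, an abundant chaperonin gene on the other strand with 4375 and 4572 normalized reads. As for *Atf5*, strand use is not given, so the *Psph* value may hold reads of *Cct6a*.

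The mitochondrial genes that carry serine carbon into folate did not differ beyond counting error. *Shmt2*, which splits serine into glycine and a folate-bound carbon, lies on chromosome 10 from 127517123 to 127522444, reverse strand. It had 8923 normalized reads in control liver and 9186 in iFIRKO liver, which is a log2 fold change of 0.04 (interval -0.02 to 0.10.) *Mthfd2* (chromosome 6, 83305691 to 83325908, reverse strand), which oxidizes that carbon unit and is known for its low level in most adult tissues, had 94.3 and 87.1 normalized reads. Its log2 fold change of -0.11 had a wide interval, from -0.74 to 0.52. At the depth of *Shmt2* a difference of 1.5-fold lies far outside the interval, whereas for *Mthfd2* a decrease of that size lies inside it.

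*Chac1* encodes a γ-glutamylcyclotransferase that breaks down glutathione in the cytosol and is induced through ATF4 and CHOP. The gene (ENSMUSG00000027313.3, chromosome 2, 119351229 to 119354381, forward strand) had 187 normalized reads in control, about 94 read pairs, and 82.0 in iFIRKO, about 41 read pairs. The control value was 2.29-fold the iFIRKO value, with an interval from 1.55 to 3.35. The log2 fold change with the pseudocount was -1.15, rank 164 from the bottom of 13400 genes. Of 2922 tested genes within 2-fold of its mean level, 11.7% were called lower, and 47, with *Chac1* among them, had a log2 fold change at least as low.

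**Figure D3:**
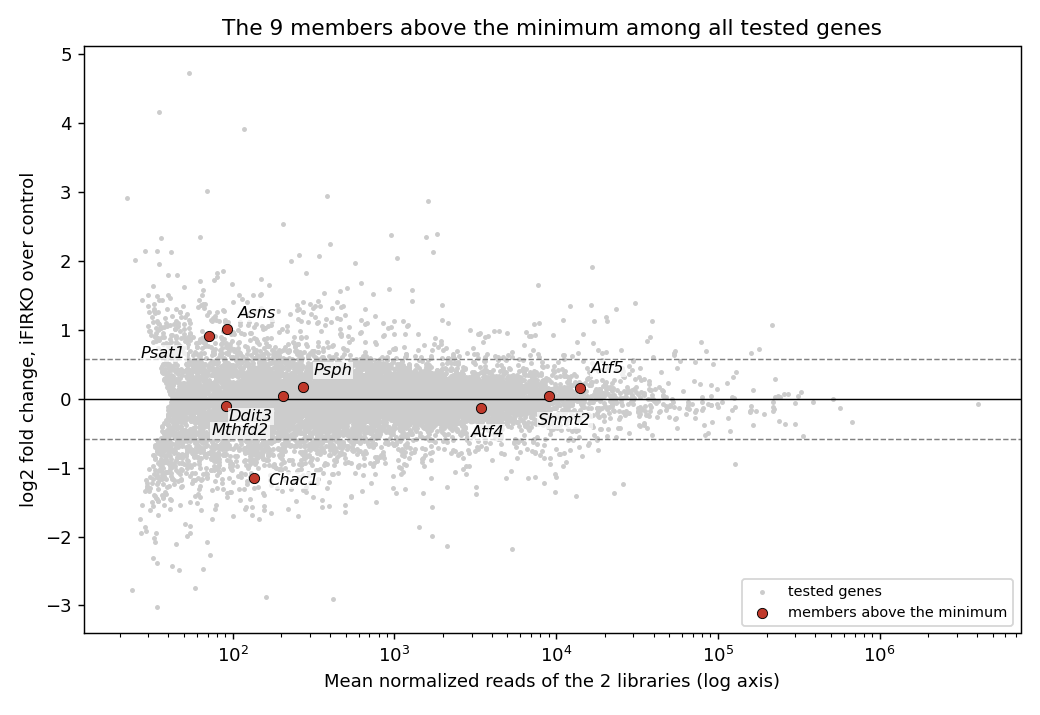
log2 fold change with the pseudocount against the mean normalized reads of the 2 libraries (log axis) for all 13400 tested genes (grey) and the 9 members above the minimum (red). The scatter widens at low levels, where *Asns* (1.01), *Psat1* (0.91) and *Chac1* (-1.15) lie, and the abundant *Atf4*, *Shmt2* and *Atf5* sit near 0.

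Levels of different genes were compared per kilobase of the longest coding transcript in GENCODE M21. In control, *Atf5* had 7339 normalized reads per kilobase, *Shmt2* 3898 and *Atf4* 2086, and the Poisson intervals of these 3 did not overlap. *Ddit3* came next at 226, ahead of *Psph* at 147 and *Chac1* at 114, and the last 2 overlapped. *Mthfd2* at 45.2, *Asns* at 29.7, *Psat1* at 18.5 and *Phgdh* at 9.97 formed the low end, where each gene overlapped its neighbour.

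In iFIRKO the same 5 genes led in the same order, with 8215 for *Atf5*, 4013 for *Shmt2*, 1905 for *Atf4*, 232 for *Ddit3* and 165 for *Psph* normalized reads per kilobase, the last 2 overlapping. Behind them the order differed. *Asns* at 61.9 stood ahead of *Chac1* at 50.1, *Mthfd2* at 41.8 and *Psat1* at 36.2, each of them overlapping its neighbour, and *Phgdh* was lowest at 7.44. Per kilobase, *Chac1* was at 3.86 times the level of *Asns* in control and at 0.809 times in iFIRKO. *Shmt2* was at 86.2 times the level of *Mthfd2* in control and 96.1 times in iFIRKO.

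The other ATF4 targets also lay on both sides. Of 24 listed genes, 17 met the minimum, of which 2 were called higher, 3 lower and 12 neither, and their median log2 fold change was -0.21. Over all tested genes 4.46% were called higher and 7.28% lower. Within 2-fold of the level of *Chac1* the shares were 7.15% and 11.7%, and within 2-fold of *Asns* 8.32% and 14.2%. The 3 lower targets and *Atf3* had levels like those of *Chac1* and *Asns*. *Trib3*, a pseudokinase gene induced through ATF4 and CHOP like *Chac1*, had 178 normalized reads in control liver and 78.5 in iFIRKO liver, which is a log2 fold change of -1.14 (interval -1.75 to -0.61.) Its promoter window held the match TTACATCA at positions 14 to 21 after the RefSeq start. The bases that follow this start were not found in a GENCODE M21 transcript of *Trib3*, so the position is uncertain. The *Trib3* and *Chac1* values were thus alike in direction and size, whereas *Ddit3* stood at 0.04 and *Atf3* was called higher at 0.74. Whether *Trib3* and *Chac1* share a cause was not tested.

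Of the 3 targets called lower, the other 2 encode amino acid transporters. *Slc7a1*, which encodes the cationic amino acid transporter CAT1, had 110 normalized reads in control liver and 49.2 in iFIRKO liver, which is a log2 fold change of -1.10 (interval -1.93 to -0.46). *Slc7a5*, which encodes the large neutral amino acid transporter LAT1, had 135 and 63.4, a log2 fold change of -1.04 (interval -1.78 to -0.48). *Slc3a2*, which encodes the shared heavy chain and was named after its value was seen, had 2246 and 2197 normalized reads. *Slc7a11*, the cystine transporter gene, was listed at 0 in both libraries, and *Slc7a3*, another cationic transporter gene, was under the minimum, so neither could be compared.

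The 2 targets called higher were named after their values were seen. *Atf3*, a stress-induced repressor and activator of the ATF family, had 99.1 normalized reads in control liver and 168 in iFIRKO liver, which is a log2 fold change of 0.74 (interval 0.23 to 1.29). *Xpot*, which encodes the exportin of tRNA, had 3730 and 5662, a log2 fold change of 0.60 (interval 0.52 to 0.69) that lies on the threshold. Of the genes whose windows held the ATF4 core, *Asns* and *Atf3* were therefore higher, *Chac1* and *Trib3* lower, and *Vldlr*, the very low density lipoprotein receptor gene, stood at 151 and 210 normalized reads without being called. The other 4, *Fgf21*, *Nupr1*, *Pycr1* and *Slc7a11*, were under the minimum. With a minimum CPM of 5 the calls of *Asns*, *Atf3*, *Chac1* and *Trib3* no longer stood, because these genes were not tested.

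**Figure D4:**
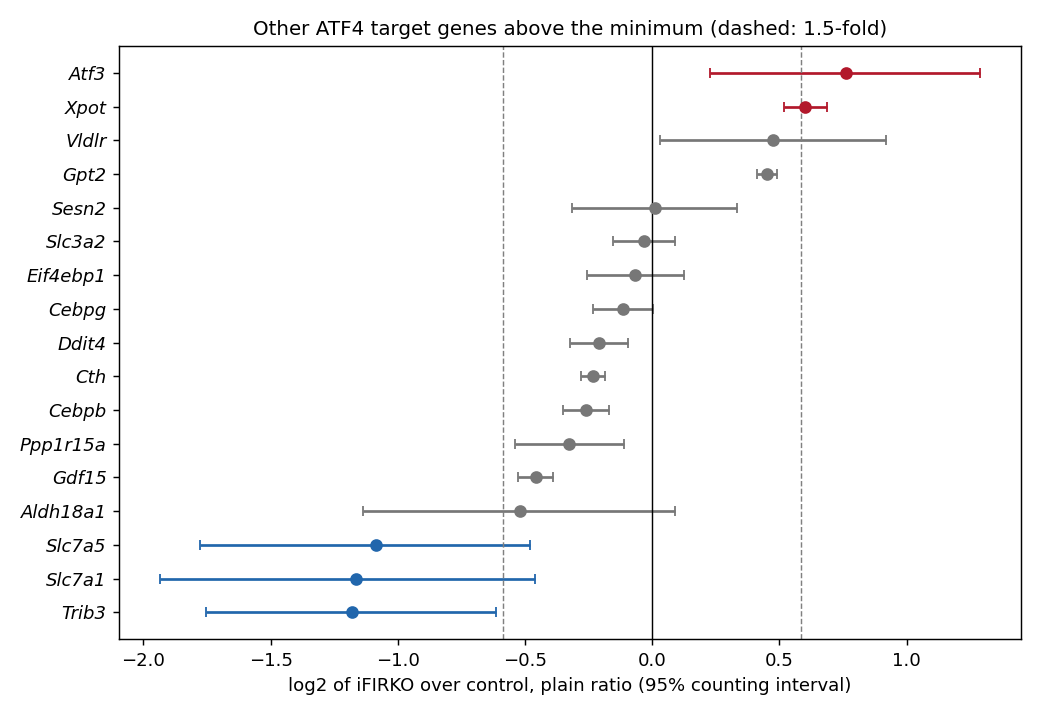
log2 ratio of iFIRKO over control, without a pseudocount, for the 17 listed ATF4 target genes above the minimum, with exact 95% Clopper-Pearson intervals that cover counting error only. *Atf3* and *Xpot* lie right of the dashed 1.5-fold line and *Slc7a5*, *Slc7a1* and *Trib3* left of the other one.

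The most abundant targets were not called. *Gpt2*, the mitochondrial alanine aminotransferase gene, had 17672 normalized reads in control liver and 24163 in iFIRKO liver, which is a log2 fold change of 0.45 (interval 0.41 to 0.49). *Cth*, which encodes the enzyme that makes cysteine from cystathionine, had 16207 and 13787, a log2 fold change of -0.23 (interval -0.28 to -0.19). *Gdf15*, the gene of a circulating stress hormone, had 7834 and 5700, a log2 fold change of -0.46 (interval -0.53 to -0.39). *Fgf21*, a hormone gene that ATF4 also drives and that was named after its value was seen, had 25.8 and 16.8 normalized reads and was under the minimum. *Gpt2* was higher and *Cth* and *Gdf15* were lower by more than counting error, with none reaching 1.5-fold.

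None of the aminoacyl-tRNA synthetases, which charge tRNAs and include many ATF4 targets, passed 1.5-fold. All 20 listed cytosolic enzymes met the minimum, 0 were called in either direction, and their median log2 fold change was 0.14, with a range from -0.09 to 0.35. Calls are few at such levels. Over all tested genes 4.46% were called higher and 7.28% lower, and within 2-fold of the level of *Atf4* 1.95% and 2.24%. The summed reads of the 20 enzymes were slightly higher in iFIRKO, at a log2 ratio of 0.13 (interval 0.11 to 0.16). *Iars* and *Kars*, named after their values were seen, were below 0 at -0.04 and -0.09. *Qars* for glutamine stood highest, with 1772 normalized reads in control and 2252 in iFIRKO. *Farsb*, with 1531 and 1834, and *Tars*, with 7585 and 9043, followed at log2 fold changes of 0.26 and 0.25. *Aars*, the most abundant, had 11331 and 11840, and *Eprs* had 5443 and 5948.

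Upstream of ATF4, 0 of 17 genes for eIF2α kinases, phosphatase subunits, eIF2 and eIF2B were called, with a median log2 fold change of 0.08. The shares over all tested genes were 4.46% higher and 7.28% lower. *Eif2b3*, *Eif2b4* and *Eif2b2*, which encode subunits of the exchange factor that phosphorylated eIF2α inhibits, were the farthest from 0, at 0.49, 0.40 and 0.35. *Eif2b3* had 296 normalized reads in control liver and 419 in iFIRKO liver. *Dnajc3*, an inhibitor of the kinases, had 13007 and 10514, *Ppp1r15b*, the constitutive phosphatase subunit, had 5709 and 5346, and *Eif2s2*, the β subunit of eIF2, had 3091 and 3236. The mRNA levels do not report the phosphorylation of eIF2α.

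Around serine and folate, calls were few, as they were over all tested genes (4.46% higher and 7.28% lower). Of 16 other folate and one-carbon genes 15 met the minimum, 0 were called and the median log2 fold change was 0.003. *Mthfd2l*, the paralog of *Mthfd2*, had 43.4 normalized reads in control liver and 64.4 in iFIRKO liver, and *Tyms*, which uses the folate carbon to make thymidylate, had 343 and 439. The abundant *Aldh1l1* (68638 and 59162), *Ftcd* (19342 and 20565) and *Mthfd1* (14658 and 13923) had log2 fold changes of -0.21, 0.09 and -0.07.

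Of 18 genes that break down serine and glycine or transfer methyl groups, 18 met the minimum, 0 were higher and 1 was lower, with a median log2 fold change of 0.04. This is near the shares over all tested genes, 4.46% higher and 7.28% lower. The lower gene was *Agxt*, which encodes the peroxisomal alanine:glyoxylate aminotransferase, at 9331 normalized reads in control and 5479 in iFIRKO, or a log2 fold change of -0.77 (interval -0.84 to -0.70). *Mat1a*, which makes S-adenosylmethionine, had 112427 and 146791, and *Glyctk*, glycerate kinase, had 10476 and 13102, with log2 fold changes of 0.38 and 0.32. *Bhmt* (309884 and 320151) and *Ahcy* (67064 and 61123) had log2 fold changes of 0.05 and -0.13.

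Of the 9 genes for asparagine, aspartate and glutamine handling, 9 met the minimum, 0 were called and the median log2 fold change was 0.003. Among all tested genes 4.46% were higher and 7.28% lower. *Asrgl1*, an asparaginase gene, stood at -0.30 and *Got2*, the mitochondrial aspartate aminotransferase gene, at 0.27. *Ass1* (166614 and 147965), *Asl* (36589 and 39884) and *Glul* (26414 and 27001) were the most abundant. *Asns*, which belongs to the same pathway, had far fewer reads than these.

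Of 12 glutathione cycle genes around *Chac1*, 9 met the minimum and 0 were called, with a median log2 fold change of -0.01. Among all tested genes 4.46% were higher and 7.28% lower. *Chac2*, the constitutive paralog, which was named after its value was seen, had 1069 normalized reads in control liver and 1057 in iFIRKO liver. *Gss*, glutathione synthetase, had 2845 and 3924, a log2 fold change of 0.46, and *Oplah*, 5-oxoprolinase, had 5636 and 7145, a log2 fold change of 0.34. *Cndp2*, a dipeptidase gene, stood at -0.12, and the glutamate-cysteine ligase genes *Gclc* (9999 and 10247) and *Gclm* (7619 and 7719) at 0.04 and 0.02.

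**Figure D5:**
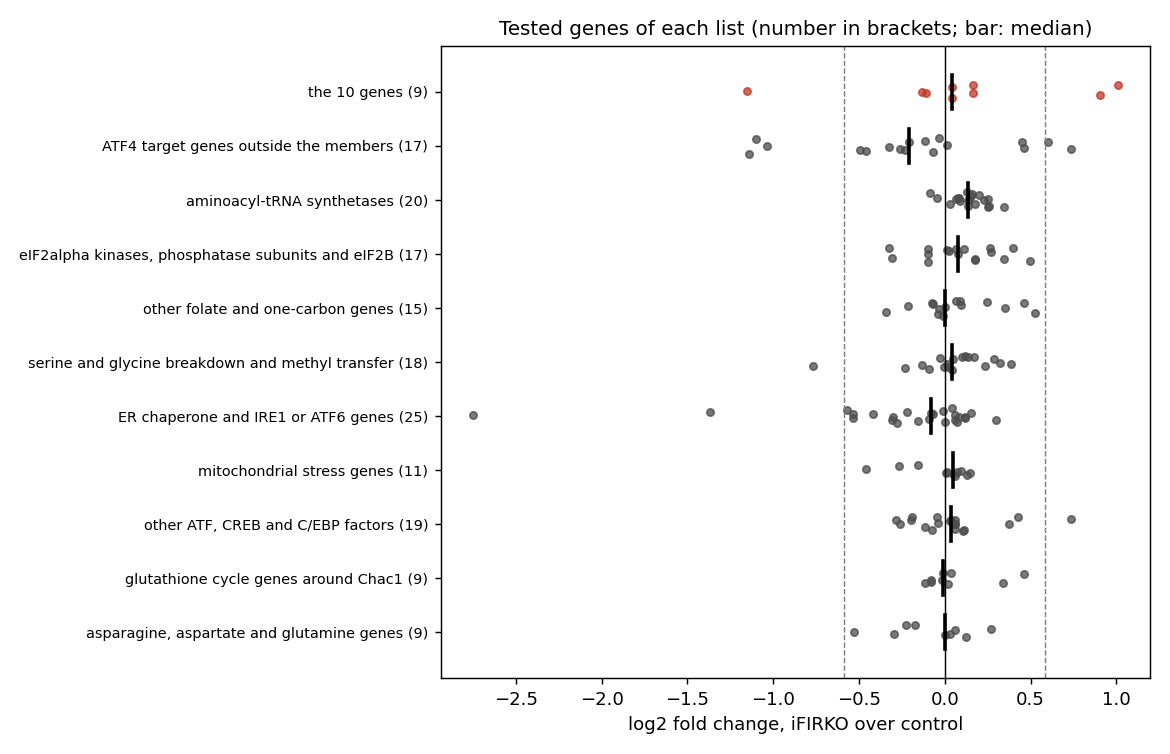
log2 fold change with the pseudocount of each tested gene, for the 9 members (red) and the 10 pathway lists (grey), with the number of tested genes in brackets, the median as a bar and 1.5-fold as dashed lines. The list medians lie between -0.21 and 0.14, and the points past the dashed lines are few and lie on both sides.

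In the other branches of the unfolded protein response, 0 of 25 listed genes were higher and 2 were lower, with a median log2 fold change of -0.08. Over all tested genes 4.46% were higher and 7.28% lower, so the number of lower genes was near the general share. The summed reads of the 25 genes, which rest on the most abundant ones, had a log2 ratio of -0.20 (interval -0.21 to -0.19). *Derl3*, which encodes a protein of the degradation channel, had 105 normalized reads in control liver and 12.1 in iFIRKO liver, which is a log2 fold change of -2.75 (interval -4.63 to -1.91). *Sdf2l1*, a chaperone cofactor gene, had 1467 and 566, a log2 fold change of -1.37 (interval -1.58 to -1.17). The abundant *P4hb* (71241 and 67826), *Calr* (46287 and 31999), *Hsp90b1* (41867 and 31315) and the disulfide isomerase gene *Pdia6* (14590 and 9830) had log2 fold changes of -0.07, -0.53, -0.42 and -0.57. *Hspa5*, which encodes BiP, the chief chaperone of the endoplasmic reticulum, and was named after its value was seen, had 31363 and 33017 normalized reads.

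Of 12 mitochondrial stress genes found by symbol, 11 met the minimum and 0 were called, with a median of 0.05. Among all tested genes 4.46% were higher and 7.28% lower. *Hspd1* (21565 and 19395), *Hspa9* (18908 and 19096) and *Clpx* (11783 and 12303) were the most abundant, and *Hspe1*, the partner of *Hspd1*, had a log2 fold change of -0.27. This list shares *Gdf15* and *Fgf21* with the ATF4 targets. Of 19 other ATF, CREB and C/EBP factors, *Atf3*, which stands in both lists, was higher, 0 were lower and the median was 0.04. *Nfe2l2*, which encodes NRF2, and *Creb3l3*, a hepatocyte factor of fasting, had log2 fold changes of 0.43 and 0.37. *Cebpa* had 8840 and 8411 normalized reads and *Nfe2l1* had 5241 and 5675.

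Marker genes of other cell types differed between the libraries alongside the members. The 7 hepatocyte markers found by symbol summed to 5177811 normalized reads in control and 4859101 in iFIRKO, so markers of the labelled tissue were abundant in both. These 7 markers had a median log2 fold change of -0.08, with *Apoa1* called lower at -0.94. Over all tested genes 4.46% were called higher and 7.28% lower. Near the level of *Psat1*, which is like that of the scarcer markers, the shares were 10.1% and 17.2%. Of Kupffer cell and macrophage markers 5 of 8 were called lower, and their summed level was 30092 normalized reads in control and 19564 in iFIRKO. Of endothelial markers 2 of 6 were lower (sums 9174 and 6668), of B cell markers 3 of the 4 tested (670 and 296), of neutrophil markers 2 of the 2 tested (396 and 116) and of T and NK cell markers 1 of the 1 tested (141 and 83.6). Of erythroid markers 4 of the 4 tested were higher (8458 and 17198). Stellate and cholangiocyte markers had 0 of 6 and 0 of 5 called (sums 11109 and 12189, and 2347 and 2026).

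Of the adipocyte markers *Lep* was listed at 0 in both libraries, *Adipoq*, *Plin1* and *Cfd* at 0 in control and at 2.01, 2.01 and 8.05 normalized reads in iFIRKO, and the sums were 17.9 and 120, nearly all from the lipid droplet gene *Cidec*, which hepatocytes can also express. *Asns*, *Psat1* and *Chac1* had few reads, and how far reads from any of these cell types make up their values was not tested.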

How the data were processed

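Stranded mRNA libraries (TruSeq) of liver, 1 control and 1 iFIRKO, were compared. The authors deposited gene-level normalized read counts as log2 values, with no value below 0, so a listed 0 may stand for up to 1 normalized read. Their processing notes name the build mm10. The aligner, the counter, the annotation, the scaling, strand use and the handling of multi-mapped reads are not given in the sources used here. The log2 values were turned back into linear ones. The commonest low value, 1.99 in control and 2.01 in iFIRKO, was taken as 1 read pair. Of values above 0 and under 20, 48.2% and 46.9% were then within 0.01 of a whole pair, so pairs are estimates, no count test was run, and intervals cover counting error only.

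CPM was the value scaled to the mean of both column totals. Fold change was iFIRKO over control with a pseudocount of CPM 0.1, for genes at CPM 1 or more in 1 or both libraries. These limits were set for an unknown unit and carried over. Positions and lengths are from GENCODE M21 (GRCm38) and promoter windows from RefSeq (GRCm38.p6). All 10 members were named, as were from each list up to 3 tested genes by fold and up to 3 by level, of marker lists their sums. Of the lists, 2 symbols (*Dele1* and *Tf*) were not analysed here, and 2 genes that the rule names are not reported here. The members and lists were chosen with earlier results of these data known. Alternatives covered the pseudocount, the minimum, scaling, repeated symbols and the fold. Scripts were checked on simulated libraries of whole Poisson counts. Changes were planted there only in genes more abundant than *Asns*, *Psat1* and *Chac1*, so calls at the level of these 3 genes were not checked. The tools were scipy 1.17.1, numpy 2.4.6, pandas 2.3.3 and matplotlib 3.10.9 under Python 3.11.15.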

Additional observations from a re-analysis of the deposited data

How the results depend on the processing

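The log2 fold changes of the 10 genes were recomputed under 6 settings of pseudocount, scaling and repeated symbols, and all 60 values stayed inside the counting interval with no change of sign. That outcome was largely fixed in advance. The plain ratio lies inside its own interval, and no member symbol is repeated. The 3 other scalings changed log2 values by about 0.012 at most. The pseudocount is thus the main setting that could move the values of these settings. Across these settings *Asns* ranged from 0.71 to 1.06, *Psat1* from 0.59 to 0.96 and *Chac1* from -1.19 to -0.89, and the lowest value of *Psat1*, with a pseudocount of CPM 1, is just past the threshold of 0.58. The calls rest on the minimum: with a minimum CPM of 5, 4 members were tested, and 0 were higher and 0 lower, since *Asns*, *Psat1* and *Chac1* were no longer tested. With a fold above 2, 1 member (*Asns*) was higher and 1 (*Chac1*) lower. Over all tested genes, calls numbered 371 higher and 576 lower with a pseudocount of CPM 1, 1960 and 2620 without a minimum, 288 and 440 with a minimum CPM of 5, and 209 and 267 with a fold above 2, against 597 and 976. With a pseudocount of CPM 1, 1 of the listed ATF4 targets was higher in place of 2, and *Atf3* was the gene lost. With a minimum CPM of 5, 1 of these targets was higher and 0 were lower, so the calls of *Trib3*, *Slc7a1* and *Slc7a5* also rest on the minimum. Under the 3 other scalings, 36.2% to 38.3% of called genes were higher. Of 176 list medians recomputed, 172 stayed inside the median counting interval of their genes, and the 4 that did not were of adipocyte and hepatocyte markers. No paired analysis was possible because only 1 library stands for each genotype. The intervals of *Asns*, *Phgdh*, *Psat1*, *Mthfd2* and *Chac1* span more than 2-fold, and 1 library per genotype leaves the spread between mice unknown.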
